A study of Homo sapiens with 22 samples.

Results

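The comparison described here set cells harvested on day 11 (D11) of messenger RNA reprogramming against cells harvested on day 9 (D9), an interval in which the daily transfections had ended. It took in the 9602 cells kept in the 7 libraries of these days, of 41975 cells kept in 22 libraries over 8 harvest days. Cells were chosen by the day in their label, were kept with at least 1000 detected genes and at most 10% of their unique molecular identifiers (UMIs, 1 per captured transcript) on mitochondrially encoded genes, and were summed within each of the 2 pools, A and B, of a day. Pools A and B of D9 held 1742 and 1653 kept cells, and those of D11 held 2925 and 3282.

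Both days came from BJ cells, a human foreskin fibroblast line, grown in microfluidic channels and labelled with mRNA transfections as their treatment. They had received 8 daily transfections, on days 1 to 8, of non-modified mRNAs encoding POU5F1 (OCT4), SOX2, KLF4, MYC, LIN28 and NANOG, so that D9 followed the last transfection by about 1 day and D11 by about 3 days. The medium was also replaced by a pluripotency maintenance medium from day 9. The end of transfection, the medium and the passage of time therefore cannot be told apart in this comparison. Whether the libraries captured the transfected mRNAs was not tested, and any such transcripts cannot be told apart from those of the cells' own genes. Every pool combined cells of 4 chips of 1 cell line, was frozen in aliquots and was captured as 1 or 2 droplet libraries, so the spread between pools A and B is that of parallel cultures. No untransfected cells of day 9 or day 11 were analysed here, and the reference without transfection was the fibroblasts of day 0 (D0).

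As background, fibroblasts given these factors lose their mesenchymal programme, gain epithelial junctions and, in some cells, switch on the endogenous network of pluripotency genes. Cells that leave that state towards mesoderm and endoderm respond to Nodal, a ligand of the transforming growth factor family that signals through SMAD proteins and the cofactor FOXH1 and that induces its own antagonists, LEFTY1, LEFTY2 and CER1, together with transcription factors such as EOMES, MIXL1 and LHX1. Synthetic RNA is also sensed in the cytosol as foreign, through IFIH1 (MDA5) and related sensors, which leads to the transcription of interferon-stimulated genes.

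The libraries were not alike within a pool, which bears on every result. Pools A and B of D9 and pool B of D11 each had 2 libraries, numbered 1 and 2 in the labels. Those numbered 1 held 143, 889 and 286 kept cells in these 3 pools, and those numbered 2 held 1599, 764 and 2996. Ratios among the libraries numbered 1 thus rest on fewer cells in D9 pool A and D11 pool B. Over 3444 well-expressed genes, the D9 libraries numbered 2 correlated with each other (Pearson's r = 0.998) more closely than with library 1 of their own pool (r = 0.935 in pool A and 0.959 in pool B), a description across genes, which are not independent replicates. NME2, a nucleoside diphosphate kinase, stood at 419 and 76.3 counts per 1000000 UMIs (CPM) in the D9 libraries numbered 1 and at 6.2 and 7.64 CPM in those numbered 2. For many genes, fold changes are therefore also given among libraries of 1 number, as log2 ratios of D11 pool B to the mean of both D9 pools with no test, those numbered 1 first. Of 93 called genes followed through other settings, 32 lost their call with the first aliquot of each pool and 6 with the second. Every one of the 523 genes called below had the same direction in both sets of libraries, as did 4907 (upwards) and 4584 (downwards) of all 12794 genes tested. The same libraries were summed into the pools that gave the calls, so this agreement is partly built in and is no separate support. Of the 9602 cells, 102 (1.06%) had a barcode found in more than 1 of the 7 libraries, and without them 520 genes were called.

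Pool A of D11 stood apart in a second way. Each kept cell, thinned at random to 5000 UMIs, was assigned to developmental-high or somatic-high by whether it held more UMIs of 11 developmental genes (among them DPPA4, L1TD1, SALL4 and EPCAM) or of 12 somatic genes (among them COL1A1, COL3A1, LUM and TAGLN). Developmental-high cells were 37.8% and 42.2% of pools A and B of D9, and 29.7% and 43.2% of pools A and B of D11. With at least 3 times as many developmental as somatic UMIs required they were 23.6% and 24.6% on D9, and 7.32% and 32.9% on D11. The classes are ranges of a score and not cell types, and 17.7% and 18.0% of the cells of D9 pools A and B and 7.97% and 6.34% of those of D11 lay within 2 UMIs of the cut. UMIs of ACTA2, which encodes smooth muscle actin and was not used for the split, were found in 77% of the developmental-high cells of D11 pool A, against 11.7% in D11 pool B, 6.99% in D9 pool A and 15.4% in D9 pool B. ACTC1 UMIs in that pool were nearly as frequent in developmental-high cells (81.9%) as in somatic-high cells (85.5%), while in D11 pool B they were in 25.7% and 45.6%. POU5F1 was in 73.7% of the somatic-high cells of D11 pool A and in 38.9% of those of D11 pool B. The source of these UMIs in D11 pool A was not tested. The labels name human fibroblasts as the cell type of every library, while COL1A1 was at 512 and 446 CPM on D9 and 1081 and 1112 CPM on D11, and EPCAM and POU5F1 were also found on both days.

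**Figure D1:**
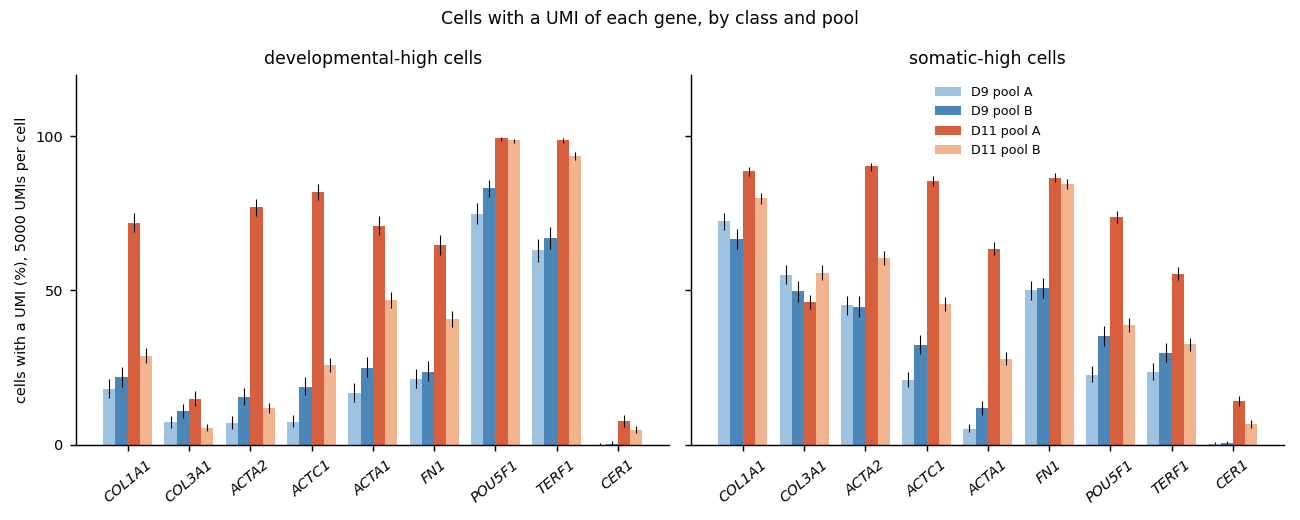
Share of cells (%, vertical axis) with at least 1 UMI of each gene after thinning to 5000 UMIs per cell, in developmental-high cells on the left and somatic-high cells on the right, with exact 95% binomial intervals that cover counting error only. In developmental-high cells, ACTA2 and ACTC1 stand at 77% and 81.9% in D11 pool A and at 11.7% and 25.7% in D11 pool B.

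Between D9 and D11 the genes that rose included CER1 and 4 mesendoderm genes, 3 muscle actin genes, FN1 and other matrix genes, and 6 pluripotency-associated genes that had not been transfected, while ARGFX and AES had the largest falls. Of 12794 genes tested with edgeR's quasi-likelihood test on the pool sums, 523 (4.09%) were called, meaning a log2 fold change past 0.25 in size with an adjusted p under 0.01. Of these, 373 (2.92%) were higher on D11 and 150 (1.17%) were lower. Of all genes tested, 6914 (54.0%) had a fold change above 0, and the median log2 fold change was 0.05. The pools did not overlap between days for any called gene, against 4718 (36.9%) of all genes with both D11 pools above both D9 pools and 3847 (30.1%) with both below. With 2 pools against 2, an exact permutation test of a single gene cannot go below p = 0.33, so the calls rest on the spread shared over all genes and days. The count depended on every pool: 67 genes were called without D9 pool A, 87 without D9 pool B, 119 without D11 pool A and 199 without D11 pool B, and 54 were called in each of these 4 fits. A named call is said below to hold without each of the 4 pools where it is among these 54, and every other named call was lost in at least 1 of the 4 fits. DESeq2 called 1198 genes (9.36%), of which 6.3% of all genes tested were higher and 3.06% lower. Genes were tested where at least 5% of the kept cells of all days held a UMI, so a gene rare on D9 could pass through the days on which it was high, and each list count below covers only the members that passed. In pool sums, fewer cells with a transcript and less of it per cell cannot be told apart.

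**Figure D2:**
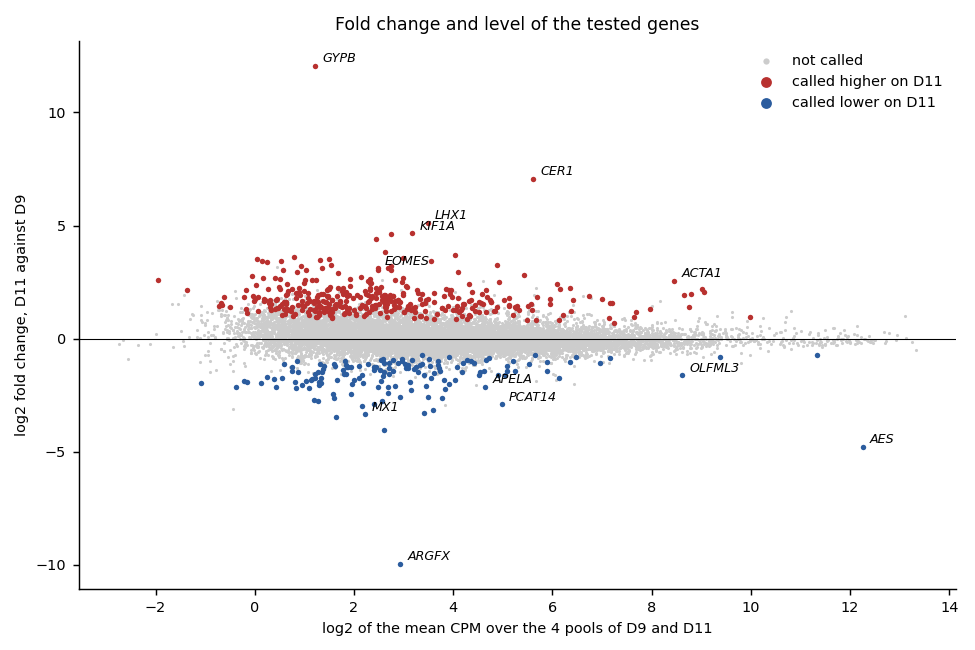
Log2 fold change from D9 to D11 (vertical axis) against the log2 of the mean CPM over the 4 pools (horizontal axis) for the 12794 genes tested, with genes called higher in red, genes called lower in blue and the others in grey. CER1 lies at 7.06, AES at -4.77 and ARGFX at -9.95, while GYPB had no UMI on D9, so its fitted value is no bound.

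The 6 genes of the transfected factors came first, and none of them was called in either direction by edgeR over all days (4.09% of all genes were called). An unadjusted p under 0.05 was found for 2 (24.2% of all genes), DESeq2 called 0 (9.36% of all genes), and the median log2 fold change was 0.15. These genes cannot serve as a check on the end of transfection, since capture of the transfected mRNAs was not tested. KLF4 UMIs were in 21.2% and 23.9% of the thinned D0 cells and in 2.64% and 2.18% of those of D9. POU5F1 stood at 414 and 446 CPM in pools A and B of D9 and 835 and 872 CPM in those of D11, a log2 fold change of 0.99 ± 0.34 (SE, adjusted p = 0.0904). SOX2 was at 29.7 and 21.6 CPM on D9 and 75.7 and 68.6 CPM on D11 (log2 fold change 1.49 ± 0.52 SE, adjusted p = 0.094). For both genes the D11 pools lay above the D9 pools, and edgeR called both when only the 4 pools of D9 and D11 were fitted (POU5F1 at 0.96, SOX2 at 1.47) and SOX2 when only the 8 pools of D9 to D15 were. The D9 libraries differed more than the days for SOX2, with 159 and 30.9 CPM in those numbered 1 and 13.8 and 14 CPM in those numbered 2, so that its log2 ratio was -0.37 among the libraries numbered 1 and 2.28 among those numbered 2. LIN28A gave -1.23 among the libraries numbered 1 and 0.82 among those numbered 2. In pools A and B of D9 it was at 852 and 214 CPM in the libraries numbered 1 and at 80.0 and 86.1 CPM in those numbered 2. In the pool sums LIN28A stood at 164 and 143 CPM on D9 and 218 and 158 CPM on D11, and its pools overlapped between days. KLF4 (-0.60, adjusted p = 0.554), MYC (0.02, 0.984) and NANOG (-0.34, 0.345) did not pass the test.

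AES, which encodes a Groucho-related corepressor that lacks the repeat domain of its family, had the largest fall among genes with at least 20 CPM on D9 (ENSG00000104964, chromosome 19, 3052910 to 3063107). It stood at 11275 and 7636 CPM in pools A and B of D9 and 360.1 and 331 CPM in those of D11, a log2 fold change of -4.77 ± 0.30 (SE, adjusted p = 7.51e-06). The D9 pools differed from each other by far less than from the D11 pools, and the log2 ratio was -4.97 among the libraries numbered 1 and -4.92 among those numbered 2. From a mean of 159.5 CPM in D0 fibroblasts it had gone through 9939.8 CPM (D3), 13370.4 CPM (D5) and 8319 CPM (D7) during transfection, and it was at 97.8 CPM (D13) and 76.3 CPM (D15) afterwards. AES fell in developmental-high cells as well, from 9121 and 6252 CPM to 301 and 268 CPM within that class, a change of -4.81 (adjusted p = 2.93e-04) on the log2 scale. The call held without each of the 4 pools. The source of the AES UMIs was not tested.

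ARGFX, a homeobox gene of the preimplantation embryo (ENSG00000186103, chromosome 3, 121567949 to 121590622), was the gene with the largest fall of all genes tested, and its call held without each of the 4 pools. It went from 18 and 12.4 CPM in pools A and B of D9, with 3576 UMIs, to 5 UMIs in all on D11. The ratio of D9 to D11 was 1066, with an exact 95% interval of 456 to 3284 for counting error alone. It was not detected on D0 in 6142 and 4634 cells, and its mean was 2.52 CPM (D3), 6.18 CPM (D5) and 15.1 CPM (D7) during transfection. After thinning, ARGFX was found in 7.58% and 4.9% of the D9 cells and in 0 of 2925 and 0 of 3282 cells on D11, which allows shares of cells with a UMI of up to 0.103% and 0.0914%. Without thinning the shares were 27.2% and 24.9% on D9 and 0.0684% and 0.0609% on D11.

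Further genes fell. PCAT14, a long noncoding RNA, fell from 52.7 and 58.3 CPM to 6.96 and 7.9 CPM (log2 fold change -2.9 ± 0.37 SE, adjusted p = 7.46e-04). APELA, a peptide ligand of the apelin receptor expressed in pluripotent cells, was at 42.7 and 38.9 CPM on D9 and 8.67 and 10.1 CPM on D11 (log2 fold change -2.12 ± 0.23 SE, adjusted p = 2.60e-04). CD83, a surface protein of maturing dendritic cells, stood at 25 and 22.1 CPM on D9 and 3.93 and 3.8 CPM on D11 (log2 fold change -2.61 ± 0.26 SE, adjusted p = 1.84e-04). The calls of APELA and CD83 held without each of the 4 pools, and that of PCAT14 was lost without either D11 pool. The remaining leading falls with at least 20 CPM in both D9 pools were KCNK1 (-2.22), CLDN11 (-2.02), SUSD2 (-1.83), PLLP (-1.82), SERPINB9 (-1.75), LYPD1 (-1.63), FAM162B (-1.63), OLFML3 (-1.62), PYGB (-1.61), HMOX1 (-1.47) and C9orf135 (-1.47), which with AES, PCAT14, CD83 and APELA made up the 15 largest of the 37 falls at that level. Without each of the 4 pools in turn KCNK1 and FAM162B kept their calls, CLDN11, SUSD2, PLLP, LYPD1, OLFML3 and C9orf135 lost theirs every time, and SERPINB9, with log2 ratios of -2.57 among the libraries numbered 1 and -1.32 among those numbered 2, lost it in 3 of the 4 fits. SUSD2, SERPINB9, LYPD1 and OLFML3 also lost their calls without TMM scaling and with only the 8 pools of D9 to D15, and SUSD2, LYPD1, OLFML3 and C9orf135 with the first aliquots. CLDN11, a claudin gene, was already below its D0 mean on D9, with means of 46.6 CPM (D0), 113 CPM (D5), 72.1 CPM (D7) and 24.3 CPM (D9). SERPINB9 encodes an inhibitor of granzyme B, HMOX1 the haem-degrading oxygenase and PYGB a glycogen phosphorylase. SUSD2 is a surface marker of naive pluripotent cells and stood at 22.9 and 21.2 CPM on D9 and 5.55 and 6.88 CPM on D11. Of the 150 genes that fell, 96 had a mean on each of D3, D5, D7 and D9 above that of D0, and 145 were below their D9 mean on D13. The same D9 values had selected these genes. The shares over all genes were not taken, so nothing is read from these counts.

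The gene with the largest rise among genes detected on both days was CER1, a secreted antagonist of Nodal and BMP (ENSG00000147869, chromosome 9, 14719724 to 14722733). It was at 0.577 and 0.868 CPM in pools A and B of D9 and 109 and 84.5 CPM in those of D11, a log2 fold change of 7.06 ± 0.44 (SE, adjusted p = 1.21e-04) that was called without each of the 4 pools. The D9 libraries numbered 1 held 4.52 and 1.73 CPM and those numbered 2 held 0.0953 and 0.169 CPM, giving log2 ratios of 4.21 among the libraries numbered 1 and 8.57 among those numbered 2. These D9 levels rest on very few cells, since 7 of the 8 thinned CER1 UMIs of D9 pool A lay in 1 cell. After thinning, CER1 was in 0.115% and 0.363% of the D9 cells and in 12.1% (exact 95% interval 10.9 to 13.3%) and 5.94% (5.16 to 6.81%) of the D11 cells. Without thinning the D11 shares were 66.5% in pool A, the pool that stood apart, and 17.8% in pool B, and no UMI was found in D0 cells, which allows shares of cells with a UMI of up to 0.0488% and 0.0647%. CER1 was concentrated in few cells, since the 1% of cells with most of it held 52.6% and 66.5% of its thinned UMIs in pools A and B of D11, against 3.66% and 4.1% for POU5F1.

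Of 16 listed mesendoderm genes 6 were tested, and LHX1, EOMES, MIXL1 and MESP1 rose (2.92% of all genes rose). LHX1 and EOMES passed the filter only through D11 or later days, since UMIs were found in 2.07% and 2.84% of the D9 cells for LHX1, in 3.04% and 3.99% for EOMES and in no D0 cell for either, so nothing is read from the share of the list that rose. In developmental-high cells, where 11 were tested, 2 rose (2.7% of all genes rose in that class). The filter there took in later days too, so nothing is read from this count either. LHX1, a LIM homeobox factor of the anterior primitive streak, stood at 0.73 and 0.528 CPM on D9 and 28.6 and 14.9 CPM on D11 (log2 fold change 5.11 ± 0.58 SE, adjusted p = 4.48e-04), with log2 ratios of 1.63 among the libraries numbered 1 and 5.2 among those numbered 2. EOMES, a T-box factor of mesendoderm, stood at 0.951 and 1.36 CPM on D9 and 11.4 and 8.57 CPM on D11 (log2 fold change 3.11 ± 0.40 SE, adjusted p = 0.00159). The D9 and D11 pools were separated for both genes, by more than the gap between pools of a day. MIXL1, a homeobox factor of the primitive streak, was at 8.66 and 10.1 CPM on D9 and 54 and 28.5 CPM on D11 (log2 fold change 2.13 ± 0.29 SE, adjusted p = 8.42e-04), with log2 ratios of 0.06 among the libraries numbered 1 and 1.9 among those numbered 2, the first of these near 0. MESP1, an early cardiac mesoderm factor, rose by 2.58 (adjusted p = 0.00155). FGF17, an FGF8-subfamily ligand, was the only member called of the 22 tested FGF and ERK feedback genes (median -0.12, with 4.09% of all genes called). It stood at 1.83 and 2.16 CPM on D9 and 28.7 and 14.1 CPM on D11 (log2 fold change 3.42 ± 0.40 SE, adjusted p = 6.44e-04). Among the libraries of 1 number the log2 ratios were 1.64 and 3.01 for EOMES, 1.58 and 2.29 for MESP1 and 2.08 and 3.04 for FGF17, and LHX1, MIXL1 and MESP1 lost their calls with the first aliquots. Leaving out either D9 pool ended the calls of LHX1, EOMES, MIXL1, MESP1 and FGF17, and leaving out D11 pool A ended those of EOMES and MESP1. Without 1 pool the largest adjusted p was 0.0122 for LHX1 and 0.0349 for EOMES.

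UMIs of LHX1, MIXL1 and EOMES were found in a minority of the cells with CER1 UMIs, at higher shares than in the other cells. In pool A of D11, 24.3% of the 354 cells with CER1 had LHX1 UMIs, against 3.31% of the other cells. In pool B the shares were 33.8% of 195 cells and 0.81%. MIXL1 was in 33.1% and 45.6% of the cells with CER1, and in 9.1% and 3.66% of the others. EOMES was in 13.3% and 29.2% of the cells with CER1, and in 2.68% and 1.43% of the others. For POU5F1 the shares were 79.1% against 82.1% in pool A and 73.8% against 64.6% in pool B. These shares describe cells of the same libraries and carry no test. The somatic-high class held more CER1 than the developmental-high class, at 153 against 38.2 CPM in D11 pool A and 104 against 59.6 CPM in D11 pool B.

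In the rest of the Nodal pathway most genes did not pass the test. Of 18 tested members, 2 rose, CER1 among them, and none fell, where 2.92% of all genes rose and 1.17% fell (median 0.17). CER1 UMIs were in 0.976% and 2.36% of the unthinned D9 cells and in no D0 cell. It passed the 5% filter through other days, so nothing is read from this count. The ligand NODAL was at 178 and 198 CPM on D9 and 159 and 122 CPM on D11, with -0.42 (adjusted p = 0.574), and its coreceptor TDGF1 at 469 and 446 CPM on D9 and 296 and 384 CPM on D11, with -0.43 (0.337). The antagonists LEFTY1 (0.17, 0.802) and LEFTY2 (0.37, 0.648), a pair of near-identical genes whose reads may be split, already stood at 165 to 227 CPM on D9. Both D11 pools were below both D9 pools for NODAL and TDGF1 and above them for LEFTY1 and LEFTY2. Among 16 tested BMP pathway genes and ID targets 2 rose, the ligand BMP7 (2.07, adjusted p = 4.56e-04) and the antagonist GREM1 (1.6, 0.00666), none fell, and the median was -0.03, beside the same 2.92% and 1.17% of all genes. GREM1 had log2 ratios of 2.51 among the libraries numbered 1 and 1.4 among those numbered 2.

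**Figure D3:**
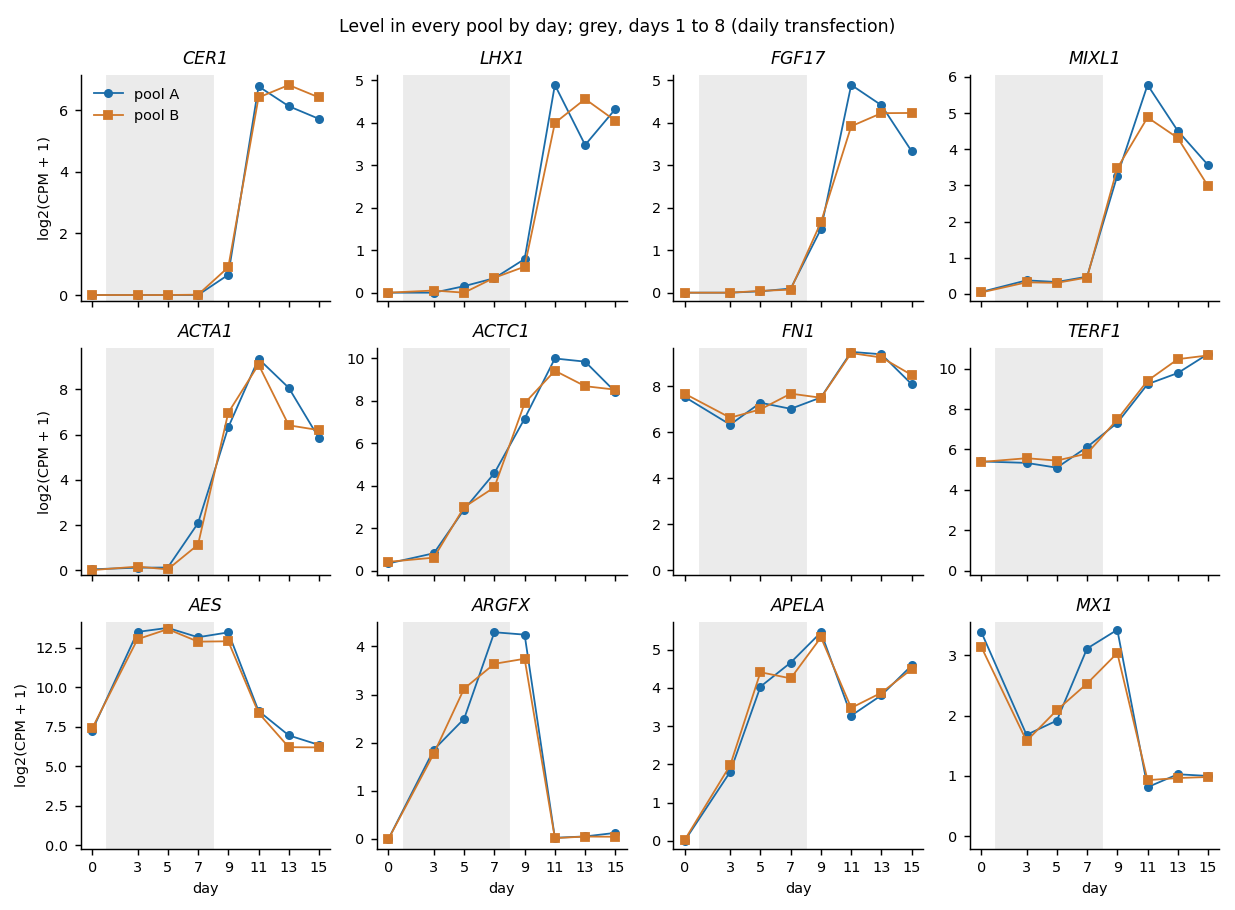
Level as log2(CPM + 1) (vertical axis) by harvest day (horizontal axis) for 12 genes, with pool A in blue, pool B in orange and the days of transfection shaded. CER1, LHX1, FGF17 and MIXL1 step up between D9 and D11, while AES, ARGFX, APELA and MX1 step down.

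Some pluripotency-associated genes that were not transfected rose. Of 23 tested, 6 rose and none fell (2.92% of all genes rose, list median 0.41), and 20 had a fold change above 0. TERF1, a telomere-binding protein abundant in pluripotent cells, stood at 158 and 178 CPM in pools A and B of D9 and 599 and 675 CPM in those of D11 (log2 fold change 1.92 ± 0.23 SE, adjusted p = 4.05e-04). DNMT3B, the de novo DNA methyltransferase of the epiblast, was at 27.4 and 29.3 CPM on D9 and 77.3 and 114 CPM on D11 (log2 fold change 1.75 ± 0.24 SE, adjusted p = 7.95e-04). ZIC2 (1.74), a zinc finger factor of the primed state, DPPA2 (1.56) and POLR3G (1.23), an RNA polymerase III subunit, were among the others. TERF1 and DNMT3B belonged to the genes used to split the cells. Their means went on to 1146 and 196 CPM on D13. DNMT3B was also the only called gene of the 8 tested DNA methyltransferases and TET enzymes (median 0.21, with 4.09% of all genes called).

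A pair of long noncoding RNAs rose as well. LINC00458 stood at 1.06 and 3.67 CPM on D9 and 28.9 and 31.6 CPM on D11 (log2 fold change 3.68 ± 0.65 SE, adjusted p = 0.00388), and its call was lost without any of the 4 pools. Its log2 fold change was 3.05 without D9 pool A, 4.83 without D9 pool B and 2.88 with the first aliquots. RP11-568A7.4 stood at 5.22 and 6.02 CPM on D9 and 54.9 and 51.4 CPM on D11 (log2 fold change 3.24 ± 0.29 SE, adjusted p = 1.84e-04) and was called without each of them. Naive-state and preimplantation genes were called in both directions. Of 9 tested, 1 rose and 2 fell, where 2.92% of all genes rose and 1.17% fell, and the median was -0.48, with DPPA5 at 22.3 and 23 CPM on D9 and 74.9 and 85.5 CPM on D11 (log2 fold change 1.82 ± 0.33 SE, adjusted p = 0.00552) against the falls of ARGFX and SUSD2. In developmental-high cells the median was 0.38 over 13 tested genes, a different set of genes, so the medians cannot be set against each other. Of these 13 genes 1 rose and 3 fell, where 2.7% of all genes rose and 1.1% fell in that class. The calls of DPPA5 and SUSD2 were lost without any of the 4 pools, and both were lost with the first aliquots. DPPA5 encodes an RNA-binding protein of pluripotent and germ cells.

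The muscle actin genes ACTA1, ACTC1 and ACTA2 and the light chain gene MYL7 rose, while the smooth muscle light chain gene MYL9, chosen after its values were seen, did not pass the test (0.94, adjusted p = 0.139). ACTA1, skeletal muscle actin (ENSG00000143632, chromosome 1, 229430365 to 229434104), was at 79.2 and 125 CPM in pools A and B of D9 and 654 and 548 CPM in those of D11 (log2 fold change 2.56 ± 0.52 SE, adjusted p = 0.00905). ACTC1, cardiac muscle actin (ENSG00000159251, chromosome 15, 34790107 to 34795589), stood at 142 and 236 CPM on D9 and 1022 and 684 CPM on D11 (log2 fold change 2.17 ± 0.38 SE, adjusted p = 0.00388), and ACTA2 stood at 189 and 219 CPM on D9 and 1078 and 642 CPM on D11 (log2 fold change 2.08 ± 0.39 SE, adjusted p = 0.00584). The lowest D11 pool was above the highest D9 pool for all 3 genes. MYL7, the atrial myosin light chain (ENSG00000106631, chromosome 7, 44138864 to 44141332), was at 5.68 and 7.0 CPM on D9 and 38.7 and 28.6 CPM on D11 (log2 fold change 2.41 ± 0.32 SE, adjusted p = 7.94e-04). These calls were fragile, since those of ACTA1 and ACTA2 were lost without any of the 4 pools and those of ACTC1 and MYL7 held only without D11 pool B. The call of ACTA1 was also lost without TMM scaling and without the 5% of cells with most UMIs, and those of ACTA1, ACTC1 and ACTA2 with only the 8 pools of D9 to D15. All 4 were lost with the first aliquots, and the log2 ratios among the libraries of 1 number were 1.85 and 2.75 for ACTA1, 1.33 and 1.96 for ACTC1, 2.25 and 1.53 for ACTA2 and 1.48 and 2.41 for MYL7. Without D11 pool A, the pool that stood apart, the log2 fold changes were 2.43 for ACTA1, 1.85 for ACTC1, 1.65 for ACTA2 and 2.17 for MYL7. On D0 the means were 0.0197 CPM for ACTA1, 0.299 CPM for ACTC1 and 112 CPM for ACTA2.

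The promoters of 3 of these genes are shown because these called genes share a motif. The windows run from 250 bases before to 50 bases after the annotated start (RefSeq, GRCh38.p14), written 5′ to 3′ on the gene's strand, with capitals marking the CArG box, the serum response factor motif, which reads the same class of letters on both strands. The window of ACTA1 is chr1:229434045-229434344, minus strand, that of ACTC1 is the most upstream of its 3 annotated starts (chr15:34795500-34795799, minus strand), and that of MYL7 is chr7:44141283-44141582, minus strand.
ACTA1: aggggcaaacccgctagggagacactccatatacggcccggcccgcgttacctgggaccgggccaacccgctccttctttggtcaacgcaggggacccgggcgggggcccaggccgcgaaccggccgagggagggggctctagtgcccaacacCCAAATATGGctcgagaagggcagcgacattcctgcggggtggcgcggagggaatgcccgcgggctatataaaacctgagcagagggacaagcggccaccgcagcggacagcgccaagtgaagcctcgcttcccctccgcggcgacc
ACTC1: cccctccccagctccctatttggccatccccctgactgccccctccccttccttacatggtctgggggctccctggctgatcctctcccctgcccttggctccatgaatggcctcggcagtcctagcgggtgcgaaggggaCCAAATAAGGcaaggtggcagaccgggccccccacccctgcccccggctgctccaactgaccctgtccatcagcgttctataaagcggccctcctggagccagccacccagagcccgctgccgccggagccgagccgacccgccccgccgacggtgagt
MYL7: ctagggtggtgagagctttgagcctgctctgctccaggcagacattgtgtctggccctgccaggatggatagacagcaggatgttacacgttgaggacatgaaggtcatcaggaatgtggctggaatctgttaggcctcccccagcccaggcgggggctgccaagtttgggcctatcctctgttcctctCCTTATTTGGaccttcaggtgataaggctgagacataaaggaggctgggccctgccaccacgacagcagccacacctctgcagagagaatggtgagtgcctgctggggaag
The box ends 87, 99 and 51 bases before the start of ACTA1, ACTC1 and MYL7. It was found in 454 of 35116 promoter windows (1.29%). Counted per gene, with a match in any of its windows, it was in 6 of the 240 called rises with a window (2.5%: ACTA1, ACTC1, FBXL22, MYL7, MYLK and SSPN) and in 2 of 103 called falls (1.94%). A gene can have several windows, so the shares of genes cannot be set against the share of windows. ACTA2 has no match in its windows, which says only that these letters are not there.

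A minority of matrix genes rose. FN1, fibronectin, stood at 181 and 179 CPM in pools A and B of D9 and 718 and 692 CPM in those of D11 (log2 fold change 1.97 ± 0.23 SE, adjusted p = 3.56e-04) and was called without each of the 4 pools. ELN, elastin, stood at 10.6 and 10.9 CPM on D9 and 87.7 and 62.5 CPM on D11 (log2 fold change 2.81 ± 0.42 SE, adjusted p = 0.00161), and LTBP2, a protein of elastic microfibrils, at 4.36 and 3.55 CPM on D9 and 27.5 and 32.7 CPM on D11 (log2 fold change 2.93 ± 0.32 SE, adjusted p = 2.98e-04). In each case the D11 pools were nearer to each other than to those of D9. The call of LTBP2 held without each of the 4 pools, and that of ELN was lost without D9 pool A, D9 pool B or D11 pool A. Among the libraries of 1 number the log2 ratios were 3.98 and 2.08 for ELN and 4.22 and 2.71 for LTBP2. Of 35 tested mesenchymal and matrix genes 5 rose, 30 were not called and none fell (2.92% of all genes rose, list median 0.41): ACTA2, FN1, FAP (1.97), FBN1 (1.71) and TIMP3 (1.42). Of 23 tested collagen genes 3 rose by edgeR, namely COL12A1 (1.71), COL6A3 (1.57) and COL11A1 (1.47), 20 were not called and none fell (median 0.89). DESeq2 called 10 of the 23 (9.36% of all genes), and 14 had an unadjusted edgeR p under 0.05 (24.2% of all genes). Both D11 pools were above both D9 pools for 17 of them (36.9% of all genes) and below for 1 (30.1%). The log2 ratios among the libraries of 1 number were 2.71 and 1.35 for COL6A3, 2.93 and 1.96 for FAP and 2.57 and 0.90 for TIMP3. COL6A3 and FBN1 were among the genes of the split. Summed over the 24 collagens, the level was 2073 and 1819 CPM on D9 and 3070 and 3561 CPM on D11, against 4059 and 4332 CPM in fibroblasts of D0. COL1A1 was at 125 and 178 CPM in the D9 libraries numbered 1 and at 559 and 662 CPM in those numbered 2, and the part of this library difference in the collagen results was not tested.

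By CPM, ACTC1 and FN1 were higher in somatic-high cells of D11. ACTC1 reached 1458 and 1416 CPM in the somatic-high cells of pools A and B of D11, from 249 and 436 CPM on D9. FN1 reached 1043 and 1425 CPM there, from 294 and 312 CPM. In both classes the D11 values of FN1 exceeded those of D9. For ACTA1 on D9 the developmental-high class held more (108 and 142 CPM) than the somatic-high class (60.5 and 101 CPM). On D11 its CPM were higher in the somatic-high class, at 795 and 728 CPM against 434 and 449.9 CPM, while the share of cells with an ACTA1 UMI stayed higher in the developmental-high class, at 71% against 63.5% in pool A and 46.9% against 27.9% in pool B.

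**Figure D4:**
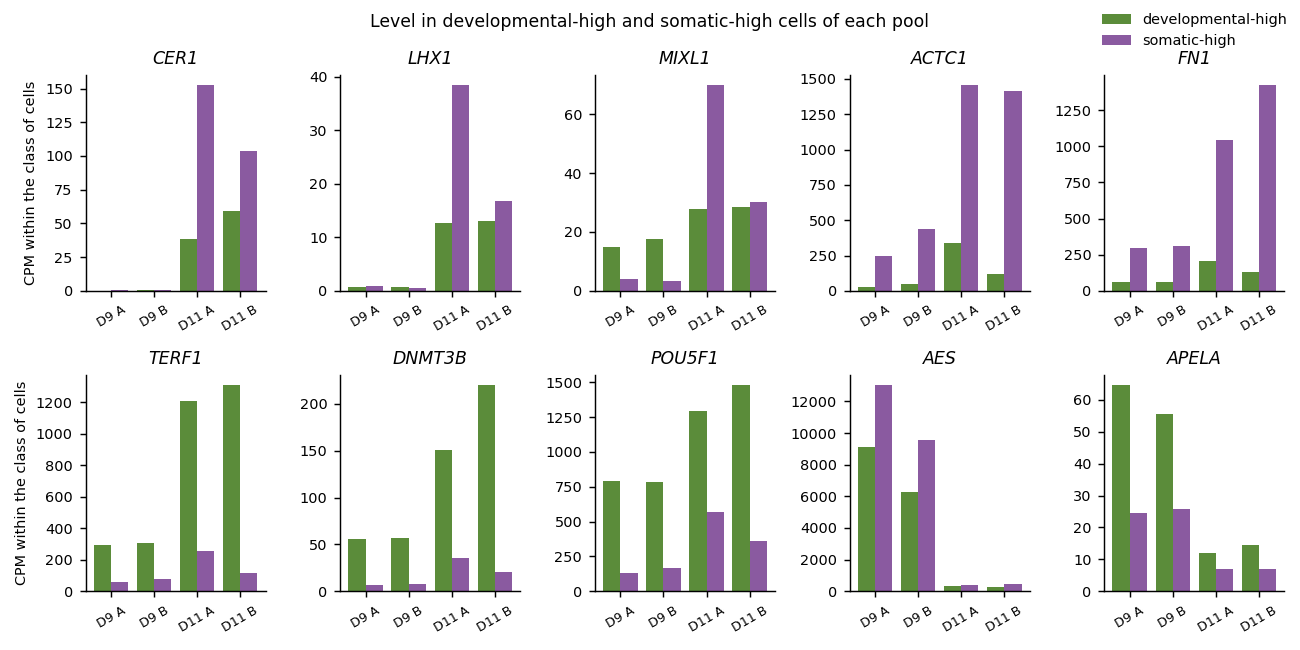
CPM within developmental-high cells (green) and somatic-high cells (purple) of each pool of D9 and D11 for 10 genes (vertical axes start at 0 and differ between panels). CER1, ACTC1 and FN1 are higher in the somatic-high class on D11, TERF1 and DNMT3B, which were used for the split, and POU5F1 in the developmental-high class, and AES drops in both.

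A minority of epithelial junction genes rose. Of 30 tested 5 rose, 25 were not called and none fell (2.92% of all genes rose, list median 0.55), and 28 had a fold change above 0. CDH1, E-cadherin, stood at 5.66 and 6.44 CPM on D9 and 18.7 and 25.5 CPM on D11 (log2 fold change 1.87 ± 0.28 SE, adjusted p = 0.0014). CLDN7, a claudin of tight junctions, stood at 23.7 and 24.6 CPM on D9 and 69.6 and 71.9 CPM on D11 (log2 fold change 1.55 ± 0.22 SE, adjusted p = 0.00127). CLDN3 (1.65), AP1M2 (1.61), a subunit of the epithelial clathrin adaptor, and CRB3 (1.23), a polarity protein, were the others, and each of the 5 calls was lost in at least 3 of the 4 fits without 1 pool. CDH1 was a gene of the split. Within developmental-high cells 1 of 29 tested epithelial genes rose and 1 fell (median 0.35). Of 28 tested mesenchymal and matrix genes none rose there and 2 fell (median 0.41), where 2.7% of all genes rose and 1.1% fell in that class. The class was cut on UMIs of somatic genes, collagens among them. The lack of a called rise therefore does not show that matrix genes were unchanged in it. Among the libraries of 1 number the log2 ratios were 1.23 and 2.37 for CDH1 and 0.99 and 1.6 for AP1M2, and CDH1, CLDN3, CLDN7 and AP1M2 lost their calls with the first aliquots. CDH1 was found at 25.8 and 38.8 CPM in developmental-high cells of D11 and at 14.7 and 15.2 CPM in somatic-high cells.

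Other leading rises fell outside these groups. HES1, a Notch effector, was at 26.4 and 30.1 CPM on D9 and 172 and 96.3 CPM on D11 (log2 fold change 2.25 ± 0.42 SE, adjusted p = 0.00548). MMP9, a gelatinase, stood at 18.9 and 24.7 CPM on D9 and 131 and 97.5 CPM on D11 (log2 fold change 2.39 ± 0.33 SE, adjusted p = 8.18e-04). WFDC2, a whey acidic protein family member, PDPN, podoplanin, and SCG3, a secretory granule protein, rose by 2.48, 2.14 and 2.2, with calls that held without each of the 4 pools for WFDC2 and PDPN and in 3 of the 4 fits for SCG3. HES1 and MMP9 kept their calls only without D11 pool B, and HES1 also lost its call with the second aliquots and in the fit of only the 8 pools of D9 to D15. CRABP1, a cytosolic retinoic acid binding protein, rose by 2.18, and NTM, a neural cell adhesion molecule, by 2.15. Among the libraries of 1 number the log2 ratios were 1.78 and 2.75 for WFDC2, 2.16 and 1.7 for HES1 and 2.79 and 1.9 for NTM. Of the 373 rises, 246 had a mean on D11 above that of D0 and 127 below it, and 369 were above their D9 mean on D13. The D9 and D11 values had also selected these genes. Without shares over all genes, nothing is read from these counts either.

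Interferon-stimulated genes and RNA sensors went in both directions. Of 42 tested, 1 rose and 3 fell, where 4.09% of all genes were called, with a median of 0.34 and 27 fold changes above 0. DESeq2 called 11 of the 42 (9.36% of all genes), and 19 had an unadjusted p under 0.05 (24.2% of all genes). Both D11 pools were above both D9 pools for 23 of them (36.9% of all genes) and below for 11 (30.1%). MX1, an antiviral GTPase, stood at 9.7 and 7.19 CPM in pools A and B of D9 and 0.759 and 0.907 CPM in those of D11 (log2 fold change -3.34 ± 0.27 SE, adjusted p = 9.77e-05) and was called without each of the 4 pools. IFIH1, the cytosolic sensor of double-stranded RNA, was at 4.58 and 3.37 CPM on D9 and 0.512 and 0.705 CPM on D11 (log2 fold change -2.71 ± 0.34 SE, adjusted p = 5.61e-04). PARP9, an interferon-induced member of the ADP-ribosyltransferase family, stood at 4.97 and 4.92 CPM on D9 and 1.62 and 2.15 CPM on D11 (log2 fold change -1.39 ± 0.24 SE, adjusted p = 0.00343). For these 3 genes every D11 pool was below every D9 pool, and the call of PARP9 was lost without any of the 4 pools. SAMD9L, an interferon-induced growth regulator, rose from 0.374 and 0.272 CPM to 1.37 and 1.51 CPM (log2 fold change 2.15 ± 0.42 SE, adjusted p = 0.00674), a call also lost without any of the 4 pools. IFNL1 had no UMI on either day. IFITM1 varied between libraries of D9 from 11.6 to 299.6 CPM and was not called.

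The promoters of the 3 interferon-stimulated genes that fell are shown with a core of the interferon response element in capitals, GAAA repeated after a gap of 2 bases, on either strand. The windows are chr21:41420308-41420607, plus strand, for MX1 (the most upstream of 3 annotated starts), chr2:162318635-162318934, minus strand, for IFIH1, and chr3:122564251-122564550, minus strand, for PARP9 (1 of 2 annotated starts). In IFIH1 a pair of the 3 matches overlap.
MX1: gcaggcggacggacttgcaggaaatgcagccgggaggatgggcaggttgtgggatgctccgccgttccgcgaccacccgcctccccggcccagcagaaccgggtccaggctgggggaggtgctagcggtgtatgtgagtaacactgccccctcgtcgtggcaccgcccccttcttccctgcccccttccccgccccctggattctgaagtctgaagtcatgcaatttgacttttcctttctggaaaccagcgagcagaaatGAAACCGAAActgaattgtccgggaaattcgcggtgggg
IFIH1: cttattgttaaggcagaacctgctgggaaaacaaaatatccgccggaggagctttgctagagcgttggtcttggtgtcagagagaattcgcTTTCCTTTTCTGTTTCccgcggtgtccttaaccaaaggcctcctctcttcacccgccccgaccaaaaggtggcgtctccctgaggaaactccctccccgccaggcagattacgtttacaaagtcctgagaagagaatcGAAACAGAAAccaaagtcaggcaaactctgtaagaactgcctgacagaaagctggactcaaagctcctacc
PARP9: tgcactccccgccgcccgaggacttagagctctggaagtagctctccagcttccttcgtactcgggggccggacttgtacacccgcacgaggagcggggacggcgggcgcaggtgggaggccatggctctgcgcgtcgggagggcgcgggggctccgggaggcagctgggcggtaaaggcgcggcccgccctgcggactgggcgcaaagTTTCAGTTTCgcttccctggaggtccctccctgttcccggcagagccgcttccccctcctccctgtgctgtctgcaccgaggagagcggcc
The letters were found in 1255 of 35116 windows (3.57%). Counted per gene, with a match in any of its windows, they were in 21 of the 32 tested interferon-stimulated genes with a window (65.6%), in 6 of 103 called falls (5.83%) and in 7 of 240 called rises (2.92%). Here too the shares of genes and of windows are unlike units. A FOXH1 site (AATCCACA on either strand) was in 287 windows (0.817%) and, of 17 tested mesendoderm and Nodal genes with a window, in MIXL1 alone. A match is a description and not evidence of binding.

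**Figure D5:**
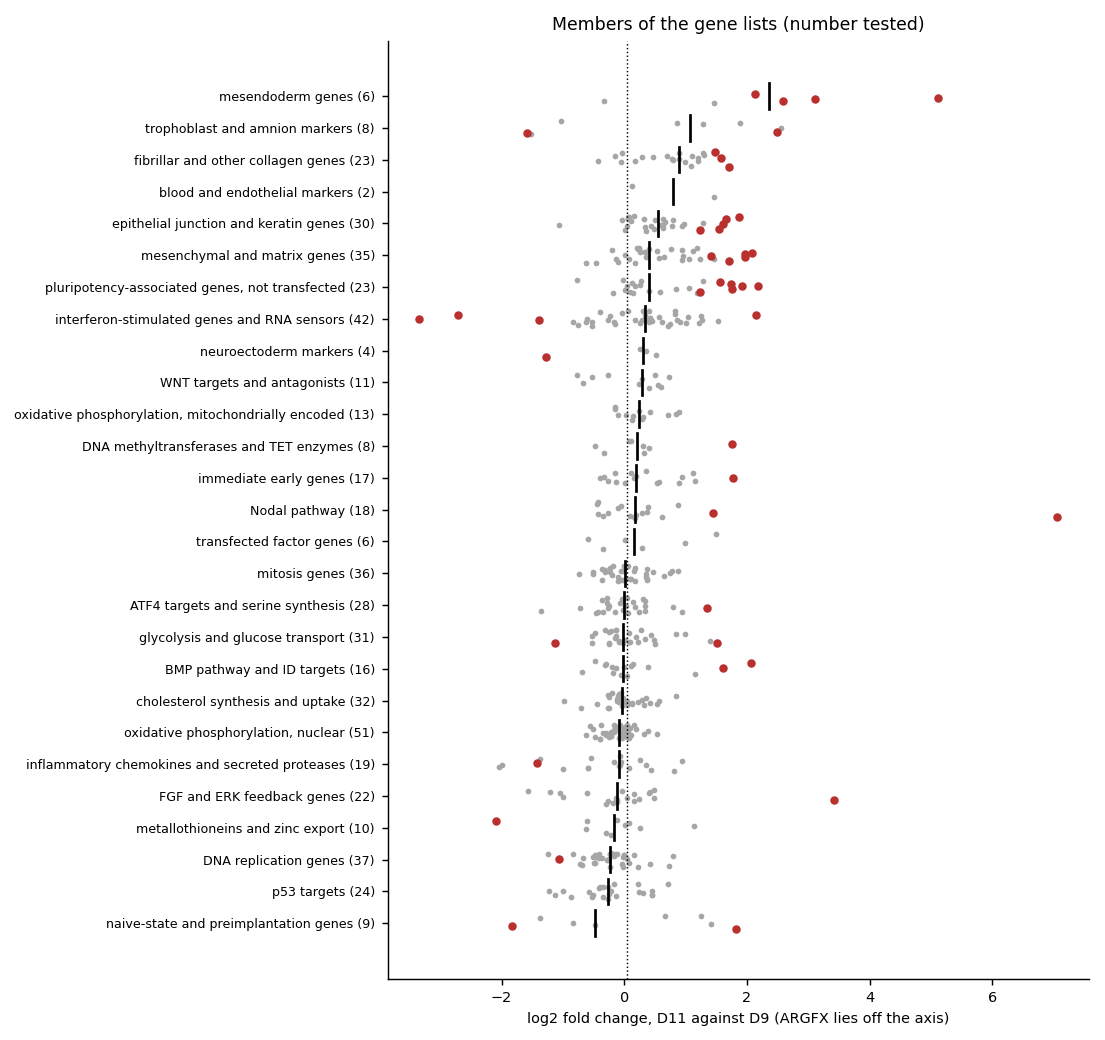
Log2 fold change from D9 to D11 (horizontal axis) of each tested member of the gene lists, 1 row a list, with called genes in red, the others in grey, the list's median as a black bar and the median of all genes as a dotted line. Members that did not pass the filter are not drawn, and ARGFX lies off the axis.

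The stress, metabolic and cell cycle lists are given beside the 4.09% of all genes that were called. The 24 tested p53 targets had none by edgeR, 3 at an unadjusted p under 0.05 (24.2% of all genes) and 1 by DESeq2 (9.36% of all genes). Their median was -0.26, with the most abundant members RPS27L at -0.35 (adjusted p = 0.246) and BAX at -0.21 (0.50). Of 19 chemokines and proteases 1 fell (median -0.08), CCL2, the monocyte chemokine, from 53.2 and 46.2 CPM to 17.4 and 19.6 CPM (-1.43, adjusted p = 6.76e-04). Of 28 ATF4 targets 1 rose (median -0.01), ALDH1L2 (1.34), a mitochondrial folate enzyme. Of 10 metallothioneins and zinc exporters 1 fell (median -0.16), the zinc exporter SLC30A1 (-2.1, adjusted p = 0.00199). Of 31 glycolysis genes EGLN3, a prolyl hydroxylase of the hypoxia pathway, rose (1.51) and PDK1, the pyruvate dehydrogenase kinase, fell (-1.12), with a median of -0.02. Of 37 DNA replication genes 1 fell (median -0.24), the helicase subunit gene GINS3 (-1.07), and 30 had a fold change below 0. Of 17 immediate early genes 1 rose (median 0.19), the nuclear receptor NR4A1 (1.77, with log2 ratios of 2.99 among the libraries numbered 1 and 1.76 among those numbered 2).

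The remaining lists had no gene called by edgeR. They were 36 mitosis genes (median 0.00, with PTTG1 at -0.32 and CKS2 at -0.19), 32 cholesterol genes (median -0.05, with FDPS at 0.05 and FDFT1 at -0.05) and 11 WNT targets and antagonists (median 0.29, with SFRP1 at -0.76 and DKK1 at 0.51). The 13 mitochondrially encoded respiratory genes had a median of 0.24 (MT-CO1 at 0.14 and MT-CO2 at 0.24) and the 51 nuclear ones of -0.08 (NDUFA4 at -0.02 and UQCRH at -0.03). At an unadjusted p under 0.05 there were 3 mitosis genes, 4 cholesterol genes, 1 WNT gene, no mitochondrially encoded and 4 nuclear respiratory genes (24.2% of all genes). DESeq2 called 1 gene of these lists, in the cholesterol list (9.36% of all genes). The adjusted p of these 10 genes lay between 0.21 and 0.96, which does not show that they were unchanged.

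Markers of other cell types were checked beside these results. Of all genes 2.92% rose and 1.17% fell. Of 28 trophoblast and amnion markers 8 were tested, of which GH2, a placental growth hormone, rose (2.49, adjusted p = 0.00234) and ISL1, a LIM homeobox factor, fell (-1.58, 0.00228). The summed level of the list was 243 and 227 CPM on D9 and 533 and 464 CPM on D11. Among the libraries of 1 number the log2 ratios of GH2 were 1.5 and 2.53, and its call was lost with the first aliquots. CSH1, the placental lactogen gene, stood at 46.4 and 37.3 CPM on D9 and 160.4 and 149 CPM on D11 (1.89, adjusted p = 0.0257), with log2 ratios of -0.21 among the libraries numbered 1 and 2.58 among those numbered 2, and it was called with only the 4 pools of D9 and D11. GH2, CSH1 and CSH2 are near-identical neighbours whose reads may be split, and CGB5 had no UMI. Of 16 neuroectoderm markers 4 were tested and 1 fell, the microtubule-associated protein gene MAP2 (-1.28), while the sum moved from 147 and 180 CPM to 194 and 198 CPM. Of 12 blood and endothelial markers 2 were tested and neither was called by edgeR over all days (KDR, which was called with only the 4 pools of D9 and D11, at 1.45, adjusted p = 0.014, and RUNX1 at 0.12, 0.775). Of the 2, 1 had an unadjusted p under 0.05 (24.2% of all genes) and 1 was called by DESeq2 (9.36% of all genes). The sum of the list was 11.7 to 18.0 CPM in the 4 pools. The part of these cells in the other results was not tested.

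The same contrast was also made within developmental-high cells. Of 13056 genes tested over the 8 pools of D9 to D15, 495 (3.79%) were called, 352 (2.7%) higher and 143 (1.1%) lower on D11. Over the 12087 genes tested in both fits, 163 rises were shared, 48.5% of the rises in all cells and 77.3% of those in developmental-high cells. The falls shared 73 genes, 58.4% of those in all cells and 55.7% of those in developmental-high cells. The fits share cells, so these shares are a description. The count fell to 7 without D9 pool A, 17 without D9 pool B, 4 without D11 pool A and 9 without D11 pool B, and it rests on all 4 pools.

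CER1 rose within developmental-high cells by 6.47 (adjusted p = 0.00131), LHX1 by 4.16 (adjusted p = 0.00131) and RP11-568A7.4 by 3.17 (adjusted p = 2.25e-04). After thinning, CER1 was in 0 of 658 and 2 of 697 developmental-high cells of D9 pools A and B, and LHX1 in 3 and 2. Their folds rest on this low D9 level, and the filter of this fit also took in later days. SOX2 was called in this class, at 1.97 (adjusted p = 0.0013), and its difference between D9 libraries was not measured within the class. Leaving out 1 pool at a time ended the calls of LHX1 and SOX2 in every fit, kept that of CER1 in 1 of 4 fits and kept that of RP11-568A7.4 in 3. Among the falls, ARGFX, PCAT14, KCNK1, MX1 and APELA were called in this class as well, APELA at -2.24 (adjusted p = 8.86e-04). The call of ARGFX held without each of the 4 pools and that of APELA without none of them. FN1 (1.4, adjusted p = 0.132), ACTA2 (2.86, adjusted p = 0.145), EOMES (1.71, adjusted p = 0.0647) and MIXL1 (0.73, adjusted p = 0.146) were called in all cells but did not pass in developmental-high cells, and the difference between the fits was not tested.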

How the data were processed

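Droplet single-cell RNA-seq (10x Genomics 3′) was made from 22 libraries of reprogramming BJ cells. The deposited values are raw UMI counts per gene and cell, which the authors obtained with Cell Ranger 2.2 (per the submitters' processing notes) on the genome build hg38 (per the study's methods), and no normalization had been applied. Counts of kept cells were summed per pool, genes with a UMI in at least 5% of kept cells (12794 of 33694) were tested with edgeR 4.0.16 (R 4.3.3) on all 16 pools with TMM scaling, and p-values were Benjamini-Hochberg adjusted over all genes tested. CPM are per 1000000 UMIs of these genes, TMM-scaled. Pool totals were 112553545 to 180056814 UMIs, with medians of 44744 to 62964 UMIs per cell. In simulated data edgeR called 4, 47, 49 and 49 of 50 genes changed 2-, 4-, 8- and 16-fold between D11 and D9, with 1 false call among the unchanged genes. The simulated counts were independent draws around a single mean per gene. They held no difference between libraries of a pool and no pool that stood apart, so these rates do not carry over to the real data.

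Cells were thinned to 5000 UMIs for shares and for the split. Every kept cell had enough, and doublets were not removed. CPM within a class of cells are per 1000000 UMIs of that class. For library ratios 0.1 CPM was added. Named genes were the 15 largest called rises and 15 largest called falls with at least 20 CPM in both pools of the higher day and no overlap, the transfected factors, up to 4 called members each way of every list (or the 2 most abundant where none was called), and pathway members. Genes in the closing observations were chosen after their values were seen. The members and the 27 lists were chosen with earlier results of these data known. Coordinates are those of GENCODE 44 (GRCh38), matched by gene ID. Some genes that the rule names are not reported here. Alternatives covered tool, scaling, filters, samples, aliquots and single pools.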

Additional observations from a re-analysis of the deposited data

How the results depend on the processing

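The count of 523 genes became 1198 with DESeq2, 1470 with no filter on genes (29281 tested), 1067 with only the 4 pools of D9 and D11, 280 with only the 8 pools of D9 to D15, 332 with the first aliquot of each pool and 1225 when any fold was allowed and the adjusted p had to be under 0.05. It was 67 to 199 without 1 pool, where the lone pool of that day was assumed to vary like the others. It stayed within 1.5 times of the main count with DESeq2's size factors (518), without TMM (483), with sums thinned to the smallest total (391), with at most 5% mitochondrial UMIs (385), without the 5% of cells with most UMIs (439), without shared barcodes (520) and with the second aliquot (542, chosen after seeing the data). With pool letter as a replicate block 581 genes were called, but the letters only share a name (correlation over genes of the A minus B differences of D9 and D11, r = -0.02), and the 93 called genes tested here kept their calls. In developmental-high cells 495 became 1324 with DESeq2, 4 to 17 without 1 pool, 369 with the replicate block, 406 with a cut at 3 times the somatic UMIs and 535 with the cut made without thinning. Of the 93 called genes, 21 lost their calls with only the 8 pools of D9 to D15 (among them LINC00458, ZIC2, MESP1, GREM1, AP1M2, CLDN7, PARP9, PDK1, GINS3, ISL1, PTPRZ1 and HOTAIRM1), 8 without TMM (PDK1 and GINS3 among them), 12 with at most 5% mitochondrial UMIs (ZIC2, GREM1, COL6A3, SAMD9L, PARP9, ALDH1L2, GINS3, MYLK, LMOD1, AKR1C3 and HOTAIRM1 among them), 9 with thinned sums (C9orf135, SAMD9L, ALDH1L2, EGLN3, GINS3, ISL1, LMOD1 and HOTAIRM1 among them), 5 without the cells with most UMIs (ACTA1, LYPD1, ZIC2, SAMD9L and ALDH1L2), 6 with the second aliquots (HES1, GREM1, COL6A3, SAMD9L and MAP2 among them) and 32 with the first (among them ZIC2, COL11A1, PARP9, SAMD9L, CCL2, ALDH1L2, EGLN3, GINS3, MAP2, CNTNAP2, PTPRZ1 and LMOD1). No called gene reversed in any fit. Genes not called that reversed were LIN28A (-1.18) and SOX2 (-0.26) with the first aliquot. MYC reversed with the first aliquot (-0.51), no filter (-0.043), 4 pools (-0.0070), 8 pools (-0.025) and at most 5% mitochondrial UMIs (-0.059), and ranged from -0.36 to 0.31 without 1 pool. FDPS reversed with no filter (-0.013) and ranged from -0.20 to 0.25 without 1 pool, as FDFT1 did from -0.21 to 0.095. With the second aliquot NDUFA4 (0.032), UQCRH (0.015) and RUNX1 (-0.015) reversed, and without 1 pool they ranged from -0.080 to 0.032, -0.065 to 9.35e-05 and -0.0074 to 0.24. Apart from the first aliquot, whose libraries differ from the second, and from filters and left-out pools, which change the genes or samples used, the cause was not tested. Counting error and 2 pools a day limit genes under about 1 CPM.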

Other observations

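Several genes outside the lists, chosen after their values were seen, changed in this interval. GYPB, a glycophorin of red blood cells, had no UMI in either D9 pool and 1632 UMIs on D11 (4.55 and 4.78 CPM), at least 365-fold higher than the limit of 3 counts over the D9 pools allows. It was in 1.57% and 1.13% of thinned D11 cells, in 8.0% and 2.44% of them without thinning, and in no D0 or D9 cell. It thus passed the 5% filter through other days, D11 among them. Its reads may be split with near-identical copies in the genome. KIF1A, an axonal kinesin, rose, at 0.484 and 0.894 CPM on D9 and 18.3 and 16.4 CPM on D11 (log2 fold change 4.65 ± 0.45 SE, adjusted p = 2.14e-04), and CNTNAP2, an axonal adhesion protein, at 0.526 and 0.46 CPM on D9 and 8.87 and 11.8 CPM on D11 (log2 fold change 4.39 ± 0.39 SE, adjusted p = 1.70e-04). PTPRZ1, a receptor tyrosine phosphatase, rose too (3.54), and all 3 had a higher mean on D13 than on D11. These genes were picked for their change, and of the 4 tested neuroectoderm markers none rose and MAP2 fell. Without thinning, KIF1A was in 2.87% and 4.42% and CNTNAP2 in 1.61% and 1.27% of the D9 cells, so they passed the 5% filter through other days. Most UMIs of KIF1A on D11 lay in developmental-high cells (59.5% and 79.8%), which held 36.9% and 51.8% of all UMIs of cells assigned to a class in those pools. NR4A2, a nuclear receptor, stood at 0.331 and 0.187 CPM on D9 and 3.05 and 3.31 CPM on D11 and was back at 0.305 CPM on D13. Without thinning it was in 22.1% and 28.2% of the D0 cells and in 11.6% and 8.78% of the D11 cells, so its D11 shares were below those of D0.

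Other genes of smooth or cardiac muscle included MYL4 (2.44), MYLK (1.8) and LMOD1 (1.95), which rose, and TNNT2 (1.39, adjusted p = 0.0146), MYL9 (0.94, 0.139) and CNN1 (0.86, 0.169), which did not pass, though TNNT2 was called when only the 4 pools of D9 and D11 were fitted. Among the falls were some HOX cluster transcripts, picked for their change without a count of the HOX genes tested, so nothing is read about HOX genes as a group. HOXD13 stood at 6.21 and 6.76 CPM on D9 and 1.01 and 1.34 CPM on D11 (log2 fold change -2.47 ± 0.37 SE, adjusted p = 0.00161). HOXB-AS1 (-2.25) and HOTAIRM1 (-1.14), both antisense to coding genes, fell too. The aldo-keto reductases AKR1C1 (-2.58), AKR1C2 (-1.94) and AKR1C3 (-2.09) fell, though their near-identical sequences can split reads. CD36, a fatty acid transporter, fell from 12.9 and 9.92 CPM to 0.429 and 0.943 CPM, AFP, alpha-fetoprotein, stood at 21.7 and 16.8 CPM on D9 and 1.98 and 1.94 CPM on D11, and LIM2, a lens membrane protein, at 24.9 and 18.5 CPM on D9 and 2.11 and 2.72 CPM on D11. AFP and LIM2 had D7 means of 12.4 and 14 CPM, against 0.191 and 0 CPM on D0, and their calls held without each of the 4 pools, as did those of CD36, GYPB, KIF1A, CNTNAP2, NR4A2, HOXB-AS1 and AKR1C1.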
